A study of Homo sapiens with 6 samples.

Results

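The expression of 10 genes of the insulin-like growth factor axis was examined in Huh7 cells, an established human hepatoma line. They are the ligand gene IGF2, the noncoding RNA H19, the receptors IGF1R, IGF2R and INSR, the adaptors IRS1 and IRS2, and the binding proteins IGFBP1, IGFBP2 and IGFBP4. They were chosen by gene symbol from a table of 50868 genes, and each symbol matched 1 row. 3 libraries came from cells given a plasmid that overexpresses hsa_circ_0098181, a circular RNA of the SOX5 gene, and 3 came from cells given the control plasmid. Both groups were transfected by lipofection, grown in medium with 10% fetal bovine serum and collected 48 h later, and no source says whether the 3 samples of a group were separate cultures, so p-values measure the spread between these samples, which may be technical.

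IGF2 is a growth factor that the liver makes in large amounts before birth and that many hepatomas also make. It signals through the tyrosine kinases IGF1R and INSR, whose activated forms recruit IRS1 and IRS2 and start the PI3K and AKT cascade, while IGF2R carries IGF2 to the lysosome and does not signal in this way. Binding proteins hold the ligand outside the cell. IGF2 and H19 are imprinted neighbours on the short arm of chromosome 11, where IGF2 is normally read from the paternal copy and H19 from the maternal copy, and H19 is also the precursor of miR-675.

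Of the 10 genes, H19 had no count in any library, IGFBP1 was too low to be tested, and 8 were tested. None of the 8 passed an adjusted p of 0.05 in edgeR's quasi-likelihood test, where 0.0399% of the 15055 tested genes did (0.0266% higher and 0.0133% lower). At an unadjusted p under 0.05 there was 1 of 8, IGFBP4, against 5.5% of all tested genes. IGFBP4 was also the gene among the 8 whose groups did not overlap, which held for 12.9% of all tested genes. 7 of the 8 had a log2 fold change below 0, as did 49.5% of all tested genes, and the median over the 8 was -0.14 beside 0.0023 over all. Log2 fold changes are overexpression minus control throughout.

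Library totals ran from 11130902 to 14138262 counts. Control replicate 1 and overexpression replicate 1 stood apart in opposite ways. Across tested genes the deviation of log2 CPM (counts scaled to a common library size) from its average over the libraries rose by 0.063 for each doubling of exon length in control replicate 1 and fell by 0.061 in overexpression replicate 1, and lay between -0.0055 and 0.0094 in the others. For each 10% of GC content the deviation changed by -0.075 in control replicate 1. It changed by 0.034 and 0.035 in overexpression replicates 1 and 2, and by -0.0026 to 0.0060 in the others. Mitochondrial genes held 9.29% of the counts in control replicate 1 and 6.32% to 7.04% in the others. For the members and for the median of the wider gene list, values without 1 of these libraries are given below. Single genes of that list are given from all 6 libraries only. The hepatocyte and hepatoma markers ALB, AFP, APOA1, APOB, TTR, SERPINA1 and HNF4A were present in all libraries, with AFP from 10801 to 13276 CPM. Of 12 markers of other cell types, CDH5 was at 0 and VWF, CD3E, KRT7 and DCN had 1 to 7 counts in total. PECAM1 (46.9 to 59.1 CPM), KRT19 (105 to 149.9 CPM), SOX9 (132 to 187 CPM), CD68 (6.64 to 12.8 CPM) and COL3A1 (6.25 to 9.20 CPM) were counted in every library, and PTPRC and COL1A1 had 92 and 33 counts in total.

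The study reports from a luciferase reporter assay that the circle binds miR-18a-3p, and that both were recovered with Ago2. H19 carries miR-675. The mature sequences of these microRNAs (RefSeq, GRCh38.p14) are therefore shown with the seed, bases 2 to 8, in capitals. The 3 seeds differ from each other.
hsa-miR-18a-3p: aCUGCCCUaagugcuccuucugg
hsa-miR-675-3p: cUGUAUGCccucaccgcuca
hsa-miR-675-5p: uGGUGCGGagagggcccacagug
The miR-675 sequences lie at chr11:1996768-1996787 and chr11:1996800-1996822 on the minus strand, inside the span of H19. miR-18a-3p lies at chr13:91350797-91350819 on the plus strand. Levels of mature microRNAs were not analysed here.

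A heptamer complementary to each seed was searched on the transcript strand in the 3′ UTR of 1 coding transcript per gene (GENCODE 29), for the 9 coding genes of the 10. AGGGCAG, the complement of the miR-18a-3p seed, was in 0 of the 9, and in 16.1% of 12584 tested genes. CCGCACC, for miR-675-5p, was in 0 of the 9 and in 3.41% of tested genes. GCATACA, for miR-675-3p, was in 2 of the 9, IGF1R and IRS2, with 2 matches each, and in 6.17% of tested genes. The matches are shown on the transcript strand with the heptamer in capitals.
IGF1R, first match: aaacatttGCATACAcatcgtct
IGF1R, second match: tgattacaGCATACAcagtgatc
IRS2, first match: gtaccaatGCATACAttaagaat
IRS2, second match: ataccgatGCATACAtcaagaat
The IGF1R heptamers lie at chr15:98958628-98958634 and chr15:98963638-98963644 on the plus strand, in a 3′ UTR of 7088 bases. The IRS2 heptamers lie at chr13:109753278-109753284 and chr13:109752904-109752910 on the minus strand, in a 3′ UTR of 3606 bases. Searched windows ran from 332 bases in IGFBP2 to 7088 in IGF1R. The shares over tested genes were not matched for window length, so they are no measure of enrichment. For IGF2 the window was 487 bases, and longer 3′ ends of its other transcripts were not searched. A match is a description of the letters and does not show binding, and the absence of one says only that the letters are not in that window.

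IGF2 (ENSG00000167244, chromosome 11 at 2129112 to 2141238, minus strand, hg38) was the most abundant of the 10 genes. The 3 overexpression libraries held 551, 588 and 553 CPM in replicate order, and the 3 controls held 738, 591 and 520.5 CPM. The overexpression libraries lay close together inside the range of the controls, and control replicate 1 was the highest of the 6. The means were 564 ± 20.6 and 616 ± 111 CPM (SD, n = 3 each). The log2 fold change of IGF2 was -0.13 (standard error 0.13), with a 95% interval of -0.42 to 0.16 and an edgeR adjusted p of 0.842. Without control replicate 1 it was 0.022, so the direction rested on that library. With the dependence on exon length and GC content fitted out, the IGF2 value was -0.15. Its coefficient of variation was 3.66% with overexpression and 18.0% in the controls, while counting alone would give 1.17% at its mean count.

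Genes that overlap IGF2 held few counts. The readthrough gene INS-IGF2 had 0 counts, the antisense gene IGF2-AS had 4 to 15 counts per library, or 0.120% of the IGF2 total, and AC132217.4, within its 3′ end, had 4 in total. How strand was handled is not given in the sources used here, so reads of IGF2 and IGF2-AS cannot be told apart. With all of them summed, the IGF2 value stayed at -0.13.

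H19 (ENSG00000130600, chromosome 11 at 1995163 to 2001470, minus strand) was listed at 0 counts in all 6 libraries, against 44118 counts for IGF2. A count of 0 allows up to 3 counts, which is 0.212 to 0.277 CPM per library and 0.0399 CPM over the 75335080 counts of all libraries, and these limits cover counting error only. No fold change can be given. On the side of H19 away from IGF2, MRPL23, a mitochondrial ribosomal protein gene, had 50 to 151 counts per library, its antisense neighbour MRPL23-AS1 had 7 to 24, and LINC01219 had 1 count in total. Beyond IGF2, the hormone gene INS and the tyrosine hydroxylase gene TH were at 0, TSSC4 had 94 to 230 counts, and CD81, which encodes a tetraspanin of many cell types, was listed at 0 too. For comparison, 0 of 74 mitochondrial ribosomal, 0 of 37 complex I and 0 of 81 cytosolic ribosomal protein genes were at 0. A value above 0 does not show that the reads of a gene were counted in full. Mean CPM with overexpression and in the controls were 4.17 and 4.24 for RPS28, beside 386 and 359 for RPL26. How the counting tool treated reads of H19 was not tested.

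**Figure D1:**
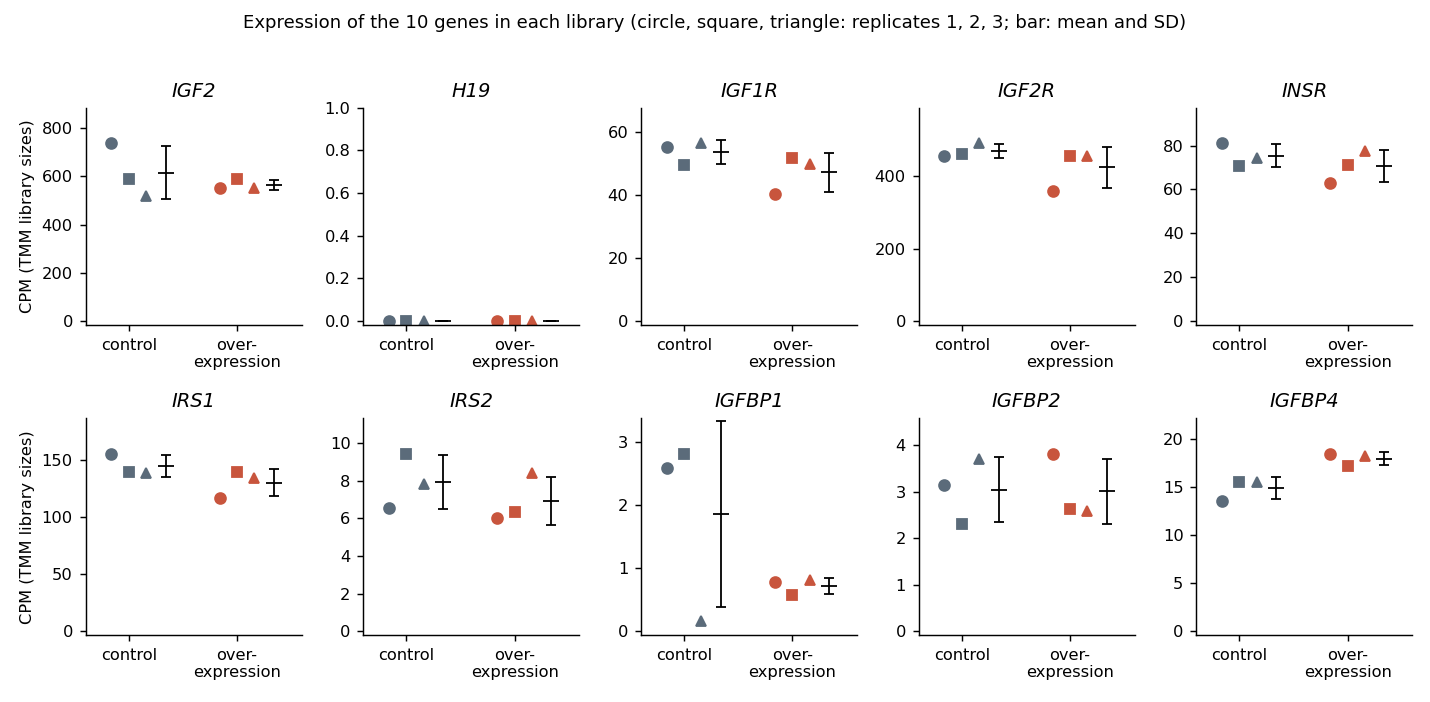
Expression of each of the 10 genes in CPM on TMM library sizes (vertical axis, linear, a scale for each gene) for the 3 control and 3 overexpression libraries, with circle, square and triangle for replicates 1, 2 and 3 and bars for the mean and SD. IGFBP4 shows groups that do not overlap (17.2 to 18.5 against 13.6 to 15.6 CPM), the receptors, IRS1 and IRS2 are lowest in overexpression replicate 1, and H19 is at 0 throughout.

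The 3 receptor genes had lower mean CPM with overexpression, with overlapping groups and no call. IGF1R (ENSG00000140443, chromosome 15 at 98648971 to 98964530, plus strand) was at 40.1, 51.7 and 49.7 CPM with overexpression and 55.1, 49.4 and 56.4 CPM in the controls. For IGF1R the log2 fold change was -0.19 (standard error 0.12), with a 95% interval of -0.46 to 0.094 and an edgeR adjusted p of 0.797. IGF2R (ENSG00000197081, chromosome 6 at 159969099 to 160113507, plus strand), the clearance receptor, was at 360.1, 457 and 457 CPM with overexpression and 456, 462 and 491 CPM in the controls. For IGF2R it was -0.15 (standard error 0.11), with an interval of -0.40 to 0.11 (edgeR adjusted p 0.805). INSR (ENSG00000171105, chromosome 19 at 7112255 to 7294034, minus strand), the insulin receptor, was at 63.1, 71.2 and 77.6 CPM with overexpression and 81.0, 70.8 and 74.4 CPM in the controls. The INSR log2 fold change was -0.094 (standard error 0.11), with an interval of -0.34 to 0.15 (edgeR adjusted p 0.860).

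In all 3 receptors the lowest of the 6 values was that of overexpression replicate 1, the library whose long genes were low, and the 3 genes have merged exon lengths of 10451 to 17843 bases. Without that library the log2 fold changes were -0.081 for IGF1R, -0.040 for IGF2R and -0.019 for INSR. Leaving out control replicate 1 instead gave -0.164 for IGF1R, -0.165 for IGF2R and -0.038 for INSR. Fitting out the dependence on exon length and GC content in every library, an alternative added after the data were seen, gave -0.075, -0.0084 and -0.0095. That correction fits length and GC content together, and how far either enters the receptor values was not tested. AIRN, the antisense RNA within IGF2R, had 0 counts, and the gene RP11-288H12.3 inside IGF2R had 252 counts in total, 0.753% of those of IGF2R. Summing overlapping genes gave -0.18 for IGF1R and -0.15 for IGF2R.

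The adaptors differed strongly in level. IRS1 (ENSG00000169047, chromosome 2 at 226731317 to 226799759, minus strand) was at 117, 139.7 and 134 CPM with overexpression and 156, 139.7 and 139 CPM in the controls. The log2 fold change of IRS1 was -0.15 (standard error 0.0999), with an interval of -0.38 to 0.078 (edgeR adjusted p 0.797). Overexpression replicate 1 was again the lowest, and without it the value was -0.080, while the length and GC correction gave -0.073. Leaving out control replicate 1 gave -0.092. IRS2 (ENSG00000185950, chromosome 13 at 109752698 to 109786568, minus strand), which in hepatocytes is induced when insulin is low, was at 6.02, 6.35 and 8.40 CPM with overexpression and 6.55, 9.45 and 7.82 CPM in the controls. For IRS2 the log2 fold change was -0.20 (standard error 0.21), with an interval of -0.68 to 0.27 (edgeR adjusted p 0.846). At 71 to 111 counts per library its coefficients of variation of 18.7% and 18.3% compare with 10.4% from counting alone. Overexpression replicate 1 was the lowest for IRS2 too, and without it the IRS2 value was -0.11. Without control replicate 2 the IRS2 value was -0.058, and without control replicate 1 it was -0.32. The length and GC correction gave -0.18.

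IGFBP4 (ENSG00000141753, chromosome 17 at 40443461 to 40457731, plus strand) encodes a binding protein that restrains IGF action until the protease PAPPA cuts it. It was at 18.5, 17.2 and 18.2 CPM with overexpression and 13.6, 15.5 and 15.6 CPM in the controls, so all 3 overexpression values lay above all 3 controls. The means were 17.9 ± 0.669 and 14.9 ± 1.13 CPM (SD, n = 3 each). IGFBP4 thus had a log2 fold change of 0.27 (standard error 0.12, 95% interval 0.0023 to 0.54), an unadjusted p of 0.0484 and an adjusted p of 0.797 in edgeR's test, and so failed the adjustment. Permuting the log2(CPM + 0.5) values exactly, two-sided, gave p = 0.1, the smallest that 3 against 3 values allow. Control replicate 1, whose short genes were low, had the lowest value of this gene, whose merged exons span 2200 bases. Without that library the log2 fold change was 0.21, and after the length and GC correction it was 0.15. How far length or GC content enters the IGFBP4 value was not tested. The unadjusted p rose above 0.05 in each of the 6 edgeR fits that left out 1 library (0.0573 to 0.113), without the count filter (0.0676), with the replicate block (0.0904), after the length and GC correction (0.194) and in DESeq2 (0.119). It was 0.0166 to 0.0499 under the other scalings, the filter on mean counts, limma on FPKM and without mitochondrial genes.

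IGFBP1 (ENSG00000146678, chromosome 7 at 45888357 to 45893668, plus strand), a hepatic gene that insulin represses, had 11, 8 and 10 counts with overexpression and 28, 33 and 2 in the controls. These are 0.779, 0.571 and 0.808 CPM against 2.58, 2.81 and 0.165 CPM. The controls therefore held both the highest and the lowest values. Exact Poisson 95% intervals, which cover counting error only, were 1.72 to 3.73 CPM in control replicate 1, 1.93 to 3.95 in control replicate 2 and 0.0199 to 0.594 in control replicate 3, so control replicate 3 differed from the other controls by more than counting error. The difference of mean log2(CPM + 0.5) was -0.64, and an exact two-sided permutation test gave p = 0.4. Leaving out control replicate 3 gave a difference of -1.40, and leaving out control replicate 1 or 2 gave -0.29 or -0.24. The gene did not reach the count filter. In an edgeR fit without that filter the IGFBP1 value was -1.34 (standard error 0.63), with an unadjusted p of 0.0497 and an adjusted p of 0.797, and DESeq2 gave -1.36 with an unadjusted p of 0.0840 and an adjusted p of 0.999.

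IGFBP2 (ENSG00000115457, chromosome 2 at 216632828 to 216664436, plus strand), a binding protein of fetal liver and of several tumours, was at 3.82, 2.64 and 2.59 CPM with overexpression and 3.14, 2.30 and 3.70 CPM in the controls. The groups covered nearly the same range. At 27 to 54 counts per library, the IGFBP2 log2 fold change was -0.012 (standard error 0.27), and its interval of -0.63 to 0.61 was wide (edgeR adjusted p 0.994). Its direction turned with the library left out, as given with the alternatives.

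**Figure D2:**
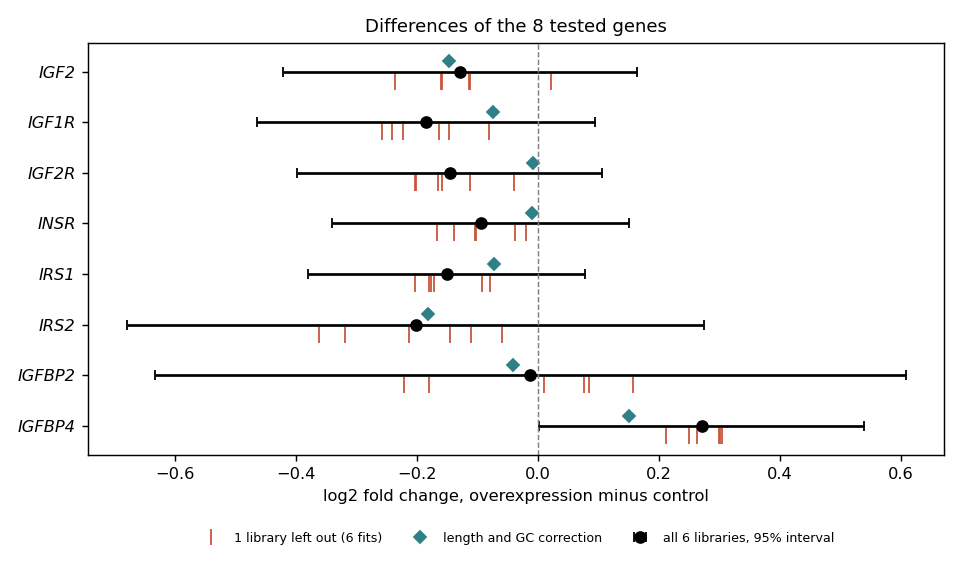
Log2 fold change of the 8 tested genes, overexpression minus control, with the 95% interval of edgeR's fit on all 6 libraries (black), the 6 fits that each left out 1 library (red ticks) and the fit corrected for exon length and GC content (diamonds). The interval of IGFBP4 excludes 0 narrowly (0.0023 to 0.54), its corrected value is 0.15, and the corrected values of IGF2R and INSR lie at -0.0084 and -0.0095.

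Levels of different genes were compared per length, as CPM per kilobase of merged GENCODE 29 exons, with all 6 libraries as n. IGF2 was at 84.6 ± 11.03, IGF2R at 25.1 ± 2.51, IRS1 at 13.8 ± 1.24, IGFBP4 at 7.46 ± 0.855, INSR at 6.99 ± 0.596 and IGF1R at 3.61 ± 0.413 CPM per kilobase (SD, n = 6). IRS2 followed at 0.913 ± 0.166, IGFBP1 at 0.778 ± 0.677 and IGFBP2 at 0.636 ± 0.132 (SD, n = 6). The 6 values of neighbours in this order did not overlap, except between IGFBP4 and INSR, between IRS2 and IGFBP1 and between IGFBP1 and IGFBP2. Among 14979 tested genes with a length, IGF2 ranked 431st, IGF2R 1885th, IRS1 3468th and IGF1R 8522nd. By the deposited FPKM the order was the same except that IGFBP2 (0.413 ± 0.0840 FPKM) stood above IGFBP1 (0.307 ± 0.265 FPKM, SD, n = 6). The FPKM divide by other gene lengths, for IGF2 9880 bases where the merged exons give 6979, and GENCODE 29 extends IGF2 beyond the span in the table.

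**Figure D3:**
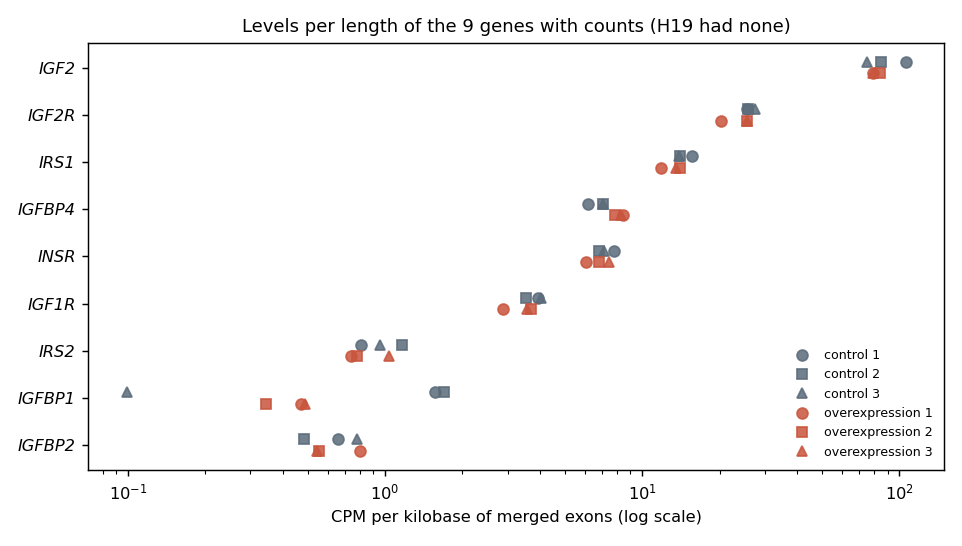
Levels of the 9 genes with counts in CPM per kilobase of merged exons (horizontal log axis), 1 point per library, controls above and overexpression below each line. IGF2 lies between 74.6 and 105.7, IGF1R between 2.88 and 4.04, and IGFBP1 spreads from 0.0996 to 1.70.

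Ratios within a library set the members against each other. IGF2R exceeded IGF1R per length 7.01, 6.91 and 7.19 times with overexpression and 6.47, 7.31 and 6.81 times in the controls, although both genes were low in overexpression replicate 1. INSR was 1.76 to 2.10 times and IRS1 was 12.1 to 19.5 times as high per length as IGF1R and IRS2. IGF2 was 2.71 to 4.13 times as high as its clearance receptor IGF2R. The size of these ratios between genes depends on the gene lengths used, here those of the merged exons. The FPKM imply 24616 bases for IGF1R where the merged exons give 13941, and 15843 for IGF2R where they give 17843. Mean FPKM over the 6 libraries were 59.6 for IGF2, 28.2 for IGF2R and 2.04 for IGF1R, which give other ratios. The ratio of IGF2 to IGFBP4 was 9.40, 10.8 and 9.58 with overexpression and 17.1, 12.02 and 10.5 in the controls, with control replicate 1 the highest. Over these 5 ratios and that of IGFBP4 to IGFBP2, 6 in all, exact two-sided permutation tests between the groups gave p from 0.2 to 0.9, and 0.6 to 0.9 after Benjamini-Hochberg adjustment.

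The genes with the pattern most like that of IGF2, by Pearson's r of log2(CPM + 0.5) over the 6 libraries among 11497 genes with a mean of at least 5 CPM, were RP11-458F8.4 (r = 0.994), UBXN4 (r = 0.993) and NOL4L (r = 0.990). All 3 were highest in control replicate 1 and lowest in control replicate 3, as was IGF2. NOL4L, for example, was at 70.9 CPM in control replicate 1, 51.0 in control replicate 3 and 52.0 to 57.7 with overexpression. Without control replicate 1 the r values were 0.984, 0.956 and 0.938. The 6 points share their library, depth and length trend, and the genes were picked as the highest of many, so these values are a description. H19 has no pattern to compare.

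The rest of the axis was described from a list of 103 genes in 10 roles. 102 were in the table, 78 were tested, and MIR675 was not analysed here. 0 of the 78 passed an adjusted p of 0.05 in edgeR's test or in DESeq2, and 6 had an unadjusted p under 0.05 in edgeR's test, 7.69% beside 5.5% of all genes. All 6 were lower with overexpression, while of all tested genes at that p 365 were higher and 463 lower. Their merged exons span 2384 bases in SH2B2, 7721 in FOXO3, 8156 in GSK3B, 10119 in GAB1, 13239 in PCSK6 and 13550 in RICTOR. How far the length trends of control replicate 1 and overexpression replicate 1 enter these values was not tested. Groups did not overlap for 10 of the 78, these 6 among them, which is 12.8% beside 12.9% of all genes. Of the 78, 30 lay above and 48 below 0, and their median was -0.052 on the log2 scale, beside 0.0023 over all genes. Without control replicate 1 the median was -0.0086, and the length and GC correction gave -0.022.

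Neither other ligand reached the test. IGF1 had 24 counts in all, and INS had 0. Among binding proteins and their partners 5 of 9 were tested, with log2 fold changes from -0.054 to 0.28 and 0 at an unadjusted p under 0.05. STC2, which inhibits PAPPA, was the most abundant of them at 121 ± 6.86 CPM with overexpression and 125 ± 2.14 CPM in the controls (SD, n = 3 each). IGFBP7 had the largest difference at 0.28 with a standard error of 0.26. PAPPA itself had 28 counts in total and was not tested.

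Among genes that act on receptors, 4 of 5 were tested. FURIN, a protease that cleaves precursors of the receptors and of IGF2, was at 495 ± 23.8 and 493 ± 44.1 CPM (SD, n = 3 each). PCSK6, a related protease, was at 54.6, 57.4 and 51.9 CPM with overexpression and 60.6, 66.2 and 63.9 CPM in the controls. PCSK6 had a log2 fold change of -0.22 (standard error 0.091, edgeR unadjusted p 0.0411, adjusted p 0.797).

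Of the adaptors 10 of 11 were tested, with a median of -0.12, 8 of them below 0. PTPN11, the phosphatase SHP2, was the most abundant at 299.6 ± 32.3 and 324 ± 11.7 CPM (SD, n = 3 each). SH2B2 had the largest difference, from 2.89 ± 0.438 CPM in the controls to 1.86 ± 0.433 CPM with overexpression (SD, n = 3 each), a log2 value of -0.63 (standard error 0.27, edgeR adjusted p 0.797). For PI3K, AKT and mTOR genes, 15 of 16 were tested and the median was -0.060. MTOR was at 169, 229 and 211 CPM with overexpression and 239.8, 218 and 213 CPM in the controls. PDPK1, the kinase that activates AKT, was at 37.4 CPM in overexpression replicate 1 and at 69.2 to 87.5 CPM in the other 5 libraries, so its log2 fold change of -0.32 (standard error 0.25) leans on 1 library.

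All 13 brakes of the pathway were tested, with a median of -0.033. TRIB3, a pseudokinase that binds AKT, was at 167 ± 33.5 and 156 ± 30.1 CPM, and SOCS3, an inhibitor of receptor signalling, was at 1.64 ± 0.193 and 1.08 ± 0.444 CPM (SD, n = 3 each, overexpression first). Of FOXO factors and insulin-responsive hepatic genes 11 of 14 were tested, with a median of -0.082. SCD, a desaturase induced by insulin, was at 3514, 3591 and 3781 CPM with overexpression and 4093, 3852 and 3613 CPM in the controls. FOXO3, a factor that AKT keeps out of the nucleus, was at 56.4, 36.5 and 35.1 CPM with overexpression and 69.0, 60.0 and 58.4 CPM in the controls. FOXO3 had a log2 fold change of -0.55 (standard error 0.18, edgeR unadjusted p 0.0169, adjusted p 0.797), and overexpression replicate 1 lay close to the controls. The gluconeogenic genes G6PC and PCK1 had 18 counts and 1 count in total. GAB1 (-0.24), RICTOR (-0.24) and GSK3B (-0.22), which are named because their values had been seen, were the other genes at an unadjusted p under 0.05 (0.0372, 0.0363 and 0.0484 in edgeR's test).

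All 6 genes for RNA-binding proteins and regulators of IGF2 mRNA were tested, with 5 below 0 and a median of -0.095. LIN28B, the most abundant of them, was at 509 ± 18.3 and 541 ± 25.2 CPM, and IGF2BP2 was at 159 ± 2.76 and 182 ± 51.3 CPM (SD, n = 3 each, overexpression first). In the controls IGF2BP2 was at 239.8, 165 and 142 CPM, the same order as IGF2. That order was not particular to IGF2BP2. IGF2BP3 (228, 182 and 171 CPM), HMGA2 (383, 301 and 289 CPM) and ELAVL1 (139, 122 and 112 CPM) had it too. IGF2BP1 and LIN28B did not. Control replicate 1 is the library that stood apart in its length trend, but whether that trend enters this order was not tested. How many of all tested genes had the order was not counted. Of 16 neighbours and imprinted genes of 11p15, 8 were tested and 5 were at 0. NAP1L4 was the most abundant (128 ± 6.07 and 125 ± 5.59 CPM), and MRPL23-AS1 had the largest difference (-0.42, standard error 0.43). Of 11 genes of the wider imprinted network, 6 were tested. TRIM28, a corepressor that maintains imprints, was at 268 ± 9.47 and 250.3 ± 24.6 CPM, and DLK1, an imprinted fetal gene, was at 21.1 ± 3.08 and 17.2 ± 3.53 CPM (SD, n = 3 each, overexpression first, edgeR adjusted p 0.842 and 0.797).

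**Figure D4:**
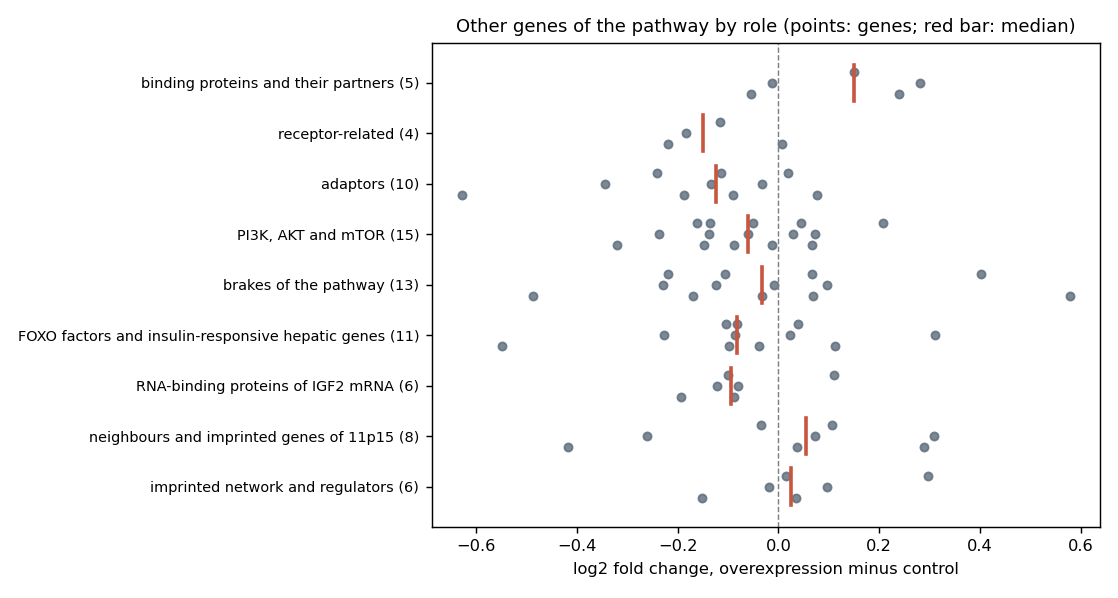
Log2 fold changes, overexpression minus control, of the 78 tested genes of the list (1 point each, number of genes in brackets) by role, with the median of each role as a red bar. Medians lie between -0.15 for receptor-related genes and 0.15 for binding proteins and their partners, and the farthest points are SH2B2 at -0.63 and SOCS3 at 0.58.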

How the data were processed

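The members and the gene lists were chosen with earlier results of these data known. The table that the authors deposited gives, for every gene, the raw read count in each of the 6 libraries and the matching FPKM. The FPKM are scaled by library total and a gene length. The submitters' processing notes name TopHat2 2.0.9 and hg38. The counting tool, strand handling and annotation release are not given in the sources used here. Strand, merged exon lengths, GC content and 3′ UTRs came from GENCODE 29 (GRCh38), joined by gene ID, and 3′ UTRs from the transcript with the longest coding sequence.

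Groups and replicate numbers came from the sample titles. Counts were tested in R 4.3.3 with edgeR 4.0.16: genes were kept by filterByExpr (minimum count 10), scaled by TMM and fitted by quasi-likelihood (glmQLFit, then glmQLFTest) on the group alone, and two-sided p-values were Benjamini-Hochberg adjusted over the 15055 genes tested. CPM used TMM library sizes. Standard errors came from the F statistic, and 95% intervals from its degrees of freedom. Permutation tests were exact. Within groups, chi-square values of library pairs were 10.1 to 20.9 per gene, so no library was a copy. The fits were tested on simulated counts that had no length or GC trend, so that test does not cover such trends.

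Named genes were the 10 members, the tested gene with the highest mean CPM and that with the largest absolute log2 fold change in each role of the list, any listed gene that passed, genes overlapping a member, and the 3 genes most like IGF2. As alternatives, counts were scaled by RLE or the upper quartile, tested with DESeq2 1.42.0, and refitted with no filter beyond 1 count, a mean of at least 50 counts, limma 3.58.1 with trend on log2(FPKM + 1), a replicate block, each library left out, overlapping genes summed, mitochondrial genes left out and, added after the data were seen, a length and GC correction by splines with 5 degrees of freedom.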

Additional observations from a re-analysis of the deposited data

How the results depend on the processing

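Over the alternatives the 8 tested members had 121 values in all, of which 0 passed the threshold and 115 kept the direction. IGFBP2 turned to 0.0042 under upper-quartile normalization and ran from -0.22 to 0.16 when 1 library was left out. In those fits IGF2 ran from -0.24 to 0.022, the latter without control replicate 1, IGFBP4 from 0.21 to 0.30, IGF1R from -0.26 to -0.081, IGF2R from -0.20 to -0.040, INSR from -0.17 to -0.019, IRS1 from -0.20 to -0.080 and IRS2 from -0.36 to -0.058. The IGFBP1 difference ran from -1.40 to -0.24, and the list median from -0.097 without overexpression replicate 3 to -0.0086 without control replicate 1. Over all genes, 4 were called higher and 2 lower. DESeq2 called 8 higher and 20 lower, and the length and GC correction 2 higher and 2 lower. Leaving out 1 library gave 1 to 7 higher and 2 to 9 lower, most without overexpression replicate 2. With a replicate block 2 were higher and 2 lower, and no member passed. Correlations of the deviations of same-numbered libraries were -0.036, -0.023 and -0.031, so no shared deviation was seen. Whether same-numbered samples were handled together cannot be told from these values. The cause of the shifts between alternatives was not tested. IGFBP2 and IRS2 had no value under limma on FPKM, and IGFBP2 none at a mean of 50 counts, since they did not reach those limits. IGFBP2 had 229 counts and IGFBP1 92 in total over the 6 libraries, so counting error alone is 16.2% and 25.5% at their mean counts.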
